A study of Mus musculus with 18 samples.

Results

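The RNA levels of 10 genes were followed in 3 blood progenitor populations of mice with and without inducible loss of TRIM33: the TIF1 genes Trim33, Trim24 and Trim28, the TGF-β receptor genes Tgfbr1 and Tgfbr2, the signal transducers Smad2, Smad3 and Smad4, and the SMAD-induced inhibitors Smad7 and Skil. The genes were taken by symbol from the gene tables of multipotent progenitors (MPPs), CD115- common dendritic cell progenitors (CD115- CDPs) and common lymphoid progenitors (CLPs). These tables list 19710, 19710 and 18378 genes. Each of the 10 genes was found in all 3 tables, and each passed the filter on low values, set at a mean of 0.5 FPKM across a population's 6 libraries. FPKM is the number of fragments per kilobase of transcript and per M mapped reads, so levels of different genes can be compared per length.

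The 18 RNA-seq libraries came from bone marrow progenitors of 6 to 8 week old C57BL/6 mice, with 3 WT and 3 KO libraries for each population. WT mice were Trim33 fl/fl, with loxP sites in both alleles and no Cre. KO mice were Trim33 fl/fl Cre-ERT2, in which an inducible Cre acts in the whole animal and not in 1 cell type. Both genotypes received 5 daily tamoxifen injections of 2 mg, and 7 more days passed before the cells were taken. MPPs were sorted as Lin- Sca-1+ CD117+ CD34+ FLT3+ cells, CD115- CDPs as Lin- CD11c- FLT3+ CD117int CD115- CD127- cells, and CLPs as Lin- CD11c- CD117+ CD127+ FLT3+ cells, which are also Sca-1+ by the series' description. Libraries are named by population, genotype label and replicate number, for example MPP KO 1.

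TIF1 proteins are chromatin-associated cofactors with a RING, B-box and coiled-coil module at the N terminus and a PHD finger and bromodomain at the C terminus. TRIM33, also called TIF1γ or ectodermin, binds receptor-activated SMAD2 and SMAD3 in competition with SMAD4 and has been described as a ubiquitin ligase for SMAD4, and it is known as a regulator of blood lineage choice. TRIM24 and TRIM28 are its paralogs, and TRIM28 is the corepressor of KRAB zinc finger proteins. In the TGF-β pathway, the ligand brings together TGFBR2 and TGFBR1, which phosphorylate SMAD2 and SMAD3, and these enter the nucleus with SMAD4 and induce, among others, their own inhibitors SMAD7 and SKIL (SnoN).

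The Cre-dependent deletion removes exons 2 to 4 of Trim33, which lies on chromosome 3 (103279293 to 103358770, GRCm38.p6, plus strand). These exons span bases 103310309 to 103311513 and hold 119, 145 and 133 bases, together 397 coding bases, or 4.47% of the 8875-base, 20-exon transcript and 7.9% of the 5025-base, 19-exon transcript that the tables list for the gene. The reference transcript across the junction of exon 1 and exon 2 is shown first, with exon 2 in capitals, because this junction is lost. The second sequence is the transcript predicted when exon 1 is joined to exon 5, with the new in-frame stop codon in capitals, and shows what kind of RNA the deleted allele can still give.
Trim33 exon 1 to exon 2: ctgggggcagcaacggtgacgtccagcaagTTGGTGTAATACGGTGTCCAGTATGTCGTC
Trim33 exon 1 to exon 5: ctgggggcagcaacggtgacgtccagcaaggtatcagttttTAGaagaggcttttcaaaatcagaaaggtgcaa
Because 397 leaves a remainder of 1 after division by 3, the reading frame is lost and the stop ends 14 bases after the junction, after 193 codons in place of 1140 or 1123. The remaining exons can still be transcribed, and a gene-level FPKM counts their reads. The study's qPCR forward primer spans exons 3 and 4 and lies within the deleted part.
Trim33 qPCR forward primer: gagtctgttggaacatctggtcagcg
Trim33 FPKM therefore does not test the deletion itself, and KO is used below as the libraries' label.

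The depth estimated from the FPKM steps was 19.22 to 21.2 M reads per library, so Trim33 rested on about 417 to 1491 reads and Skil on about 170 to 3878, if the shortest listed transcript sets the length. Longer transcripts would give more. The defining markers of each population were present, none at 0, in its own libraries, but their sums set CD115- CDP replicate 3 apart. The 6 CD115- CDP markers were themselves highest there, at 1004.72, 740.37 and 1268.86 FPKM in WT replicates 1, 2 and 3. In KO they summed to 525.07, 501.72 and 880.59, and in WT CLPs to 1599.79 to 1867.39. The 6 MPP markers, Mpo among them, summed to 688.19 to 832.17 FPKM in replicates 1 and 2 of CD115- CDPs and to 2262.11 (WT) and 2808.54 (KO) in replicate 3, above the 1586.17 to 1629.4 of WT MPPs. The marker lists share genes, so their sums are not separate observations. Flt3, Kit and Cd34 are in both the MPP and the CD115- CDP list. Flt3 is also in the CLP list, and Mpo is also in the neutrophil list. The 6 CLP markers summed to 1147.41 to 1509.4 in replicates 1 and 2 and to 446.44 and 746.83 in replicate 3, and the 6 monocyte markers to 103.97 to 225.36 and then 1778.55 and 270.91. Replicate 3 stood apart in both genotypes of CD115- CDPs, and KO replicate 3 in MPPs: 5.4% of the genes tested in CD115- CDPs were, in both genotypes, lower in replicate 3 than 50% of each of the others, and 5.95% of those in MPPs were so in KO. The summed FPKM of 8 neutrophil markers in CD115- CDPs was 627.83, 700.92 and 4179.89 in WT and 987.94, 741.5 and 3939.53 in KO. That of 8 erythroid markers was 376.74 to 401.81 in WT and 32.83 to 59.87 in KO MPPs, and 35.3 to 57.01 and 5.78 to 9.92 in CLPs. In sorted bulk samples, fewer cells of a type and less RNA per cell cannot be told apart.

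Trim33 itself was moderately expressed, between 4.03 and 15.23 FPKM over the 18 libraries, and was lower on average in KO than in WT of every population, by an amount that depended on the library. In MPPs it was at 10.42, 10.12 and 8.78 FPKM in WT replicates 1, 2 and 3 and at 9.71, 11.66 and 4.80 in KO replicates 1, 2 and 3. Only 1 of the 3 libraries labelled KO was below the WT range, and MPP KO 2 was the highest of the 6. The log2 difference of KO from WT was -0.22 (SE 0.289, 95% interval -0.91 to 0.47, adjusted p = 0.63 in limma), so MPPs give no firm direction for Trim33.

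In CD115- CDPs Trim33 was at 14.30, 15.23 and 8.27 FPKM in WT and at 9.64, 8.28 and 4.03 in KO. Each KO library was below the WT library of the same number, at 0.674, 0.544 and 0.487 of it, although the groups overlapped because WT replicate 3 was as low as KO replicate 2. The log2 difference was -0.74 (SE 0.358, adjusted p = 0.528 in limma). When the replicate number entered as a block, the same difference had an SE of 0.123 and passed (95% interval -1.04 to -0.44, adjusted p = 0.0258), in a fit in which 9.34% of all genes passed, against 0.106% without the block. In CLPs Trim33 was at 12.36, 7.01 and 8.86 FPKM in WT and at 7.52, 5.60 and 7.66 in KO. All 3 CLP pairs were lower in KO, at 0.608, 0.799 and 0.865 of WT, and the log2 difference of -0.37 (SE 0.199) did not pass (adjusted p = 0.255 in limma, 0.0727 with the block).

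Over the 3 populations together, the common log2 difference of Trim33 was -0.44 (SE 0.182, 95% interval -0.83 to -0.06, adjusted p = 0.114 in limma). An exact two-sided permutation of the genotype labels within populations, a single test with no adjustment, gave p = 0.03825, the smallest possible being 0.00025. When same-numbered libraries of a population formed a block, the same difference from all 18 libraries passed (adjusted p = 0.0189 in limma), as did 22.3% of all genes. This block also pairs the MPP libraries, whose numbers were not otherwise taken as pairs. With MPP KO replicates 1 and 2 left out and no block, the difference was -0.62. These are the MPP KO libraries in which Trim33 was not below the WT range, so that fit does not test the difference.

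Neither paralog was higher in KO beyond the spread between replicates in any population. Trim28 was expressed at 234.28 to 307.94 FPKM over the 18 libraries, the narrowest range of the 10 genes (1.31 from lowest to highest) and the highest level of the 3 TIF1 genes per length. In MPPs it was at 243.60, 240.02 and 252.28 FPKM in WT and at 247.20, 241.06 and 273.58 in KO. In CD115- CDPs the values were 270.96, 246.64 and 234.28 in WT and 264.64, 261.35 and 283.31 in KO. The genotypes overlapped in both, as they did in CLPs, where WT libraries were at 252.19, 269.24 and 246.02 and KO libraries at 307.94, 271.29 and 242.12. The KO mean was 1.04, 1.08 and 1.07 times the WT mean in MPPs, CD115- CDPs and CLPs, with a common log2 difference of 0.08 (SE 0.0517, 95% interval -0.03 to 0.19, adjusted p = 0.304 in limma).

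Trim24, at 6.53 to 11.48 FPKM, was expressed at about the level of Trim33. In MPPs it was at 7.20, 7.78 and 6.53 FPKM in WT and at 7.45, 8.61 and 8.59 in KO. In CD115- CDPs it was at 8.75, 8.35 and 9.07 in WT and at 7.86, 7.32 and 7.55 in KO, with every KO library below every WT library. KO values wholly below WT values were found for 10.6% of the genes tested in CD115- CDPs. In CLPs it was at 11.48, 8.29 and 8.70 in WT and at 9.16, 8.91 and 9.54 in KO. The log2 differences were 0.17 (SE 0.125, adjusted p = 0.39), -0.18 (SE 0.149, adjusted p = 0.731) and -0.03 (SE 0.135, adjusted p = 0.915) in limma. The common difference of -0.01 (95% interval -0.17 to 0.15) turned to 0.03 and 0.11 under median ratio scaling and quantile normalization. Trim66, the remaining TIF1 gene, stayed at 0.05 to 0.38 FPKM in all 18 libraries and was not tested.

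**Figure D1:**
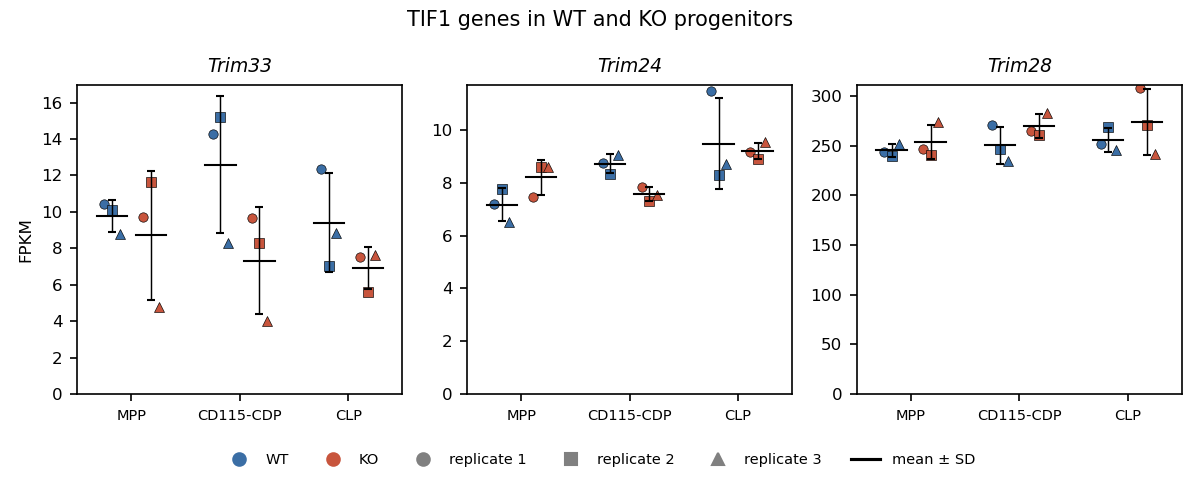
FPKM of Trim33, Trim24 and Trim28 (linear vertical axes starting at 0) in each of the 18 libraries, by population and genotype label. Symbols are single libraries, with the shape giving the replicate number, and bars are means with SD (n = 3). Trim33 in MPP KO replicates 1 and 2 lies among or above the WT libraries at 9.71 and 11.66 FPKM, and Trim28 stays between 234.28 and 307.94 FPKM throughout.

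The plot of TIF1 levels shows that the spread of Trim33 within a genotype was as wide as the difference between genotypes, whereas Trim28 hardly varied and Trim24 had its widest spread in WT CLPs (SD 1.74 FPKM). For the question whether a paralog compensates, common increases above 0.15 (Trim24) or 0.19 (Trim28) on the log2 scale lay outside the 95% intervals given above. This covers only an effect shared by the populations, in FPKM without further scaling. Trim24 alone differed by 0.17 in MPPs and -0.18 in CD115- CDPs, and by 0.11 in the common test after quantile normalization. An increase in a single population is not bounded by these intervals.

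The receptor genes showed a split between replicates like that of Trim33 in MPPs and CD115- CDPs. Tgfbr1 encodes the type I receptor kinase that phosphorylates SMAD2 and SMAD3. In MPPs Tgfbr1 was at 5.78, 7.05 and 4.72 FPKM in WT and at 13.44, 17.26 and 5.78 in KO, so that 2 of 3 KO libraries were above all WT libraries and KO 3 was level with WT 1. The log2 difference was 0.84 (SE 0.366, 95% interval -0.03 to 1.71, adjusted p = 0.218 in limma). Without MPP KO 3 it was 1.26 and passed (adjusted p = 0.0023), in a fit in which 54.3% of all genes passed. In CD115- CDPs the values were 13.37, 18.13 and 5.65 in WT and 12.99, 10.75 and 4.59 in KO, and in CLPs 14.68, 6.34 and 8.12 in WT and 7.66, 5.45 and 7.30 in KO. In these populations the mean was lower in KO (0.763 and 0.70 of WT), the genotypes overlapped, and neither difference passed (adjusted p = 0.876 and 0.361 in limma).

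Tgfbr2, the ligand-binding type II receptor, was at 14.67, 17.52 and 12.89 FPKM in WT and at 23.21, 27.37 and 8.57 in KO MPPs. KO replicates 1 and 2 were again above the WT range and KO 3 was below it. In CD115- CDPs Tgfbr2 was at 13.02, 27.18 and 5.19 in WT and at 25.37, 25.64 and 5.49 in KO, with replicate 3 lowest in both genotypes. In CLPs it stayed within 8.10 to 10.43 FPKM in all 6 libraries. The log2 differences were 0.24 (SE 0.40), 0.30 (SE 0.736) and -0.14 (SE 0.114), with adjusted p = 0.714, 0.934 and 0.459 in limma.

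Of the signal transducers, Smad2 was at 7.10 to 11.34 FPKM over all libraries, with log2 differences of 0.09, -0.21 and -0.01 in MPPs, CD115- CDPs and CLPs (adjusted p = 0.702, 0.738 and 0.949 in limma). Smad4, the shared partner of all receptor-activated SMADs, did not pass in any population either. In CD115- CDPs Smad4 was at 24.10, 25.84 and 26.91 FPKM in WT and at 22.14, 19.32 and 19.06 in KO, with no overlap, as for the 10.6% of genes tested there whose KO values all lay below WT. The log2 difference there was -0.33 (SE 0.141, adjusted p = 0.481 in limma, 0.108 with the block). Smad4 was at 21.66 to 24.72 FPKM in WT and 22.14 to 26.17 in KO MPPs, and at 24.32 to 30.29 and 22.57 to 26.42 in CLPs. The groups overlapped in both, and the common log2 difference was -0.14 (SE 0.0714, adjusted p = 0.213 in limma).

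Smad3, the DNA-binding transducer, had a higher KO mean in each population, at 1.33, 1.14 and 1.24 times WT. In CLPs Smad3 was at 17.31, 16.27 and 13.63 FPKM in WT and at 22.38, 17.85 and 18.46 in KO, with every KO library above every WT library. KO values wholly above WT values were found for 15.3% of the genes tested in CLPs. The log2 difference of 0.30 (SE 0.130) did not pass (adjusted p = 0.171 in limma, 0.0836 with the block). In MPPs the values were 19.83, 24.04 and 18.63 in WT and 28.63, 37.18 and 17.15 in KO, and in CD115- CDPs 18.48, 36.59 and 10.06 in WT and 30.78, 30.35 and 13.04 in KO. Both overlapped, with replicate 3 the lowest of each group, and the common log2 difference was 0.30 (SE 0.21, adjusted p = 0.366 in limma).

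Smad7 is the inhibitory SMAD that blocks the type I receptor and is induced by the signal it limits. It was the only 1 of the 10 genes whose MPP libraries did not overlap between genotypes. It was at 25.26, 24.97 and 22.36 FPKM in WT and at 28.78, 33.59 and 29.37 in KO MPPs, a KO mean 1.26 times the WT mean. KO values wholly above WT values were found for 6.98% of the genes tested in MPPs. The log2 difference was 0.32 (SE 0.106, 95% interval 0.07 to 0.58) and did not pass over all genes (adjusted p = 0.14 in limma). No such difference was seen in CD115- CDPs, at 34.42, 38.48 and 15.25 FPKM in WT and 34.37, 29.03 and 20.23 in KO, or in CLPs, at 84.29, 71.20 and 63.74 in WT and 79.49, 64.58 and 64.72 in KO. The log2 differences there were -0.00 (SE 0.379) and -0.07 (SE 0.133), the value in CD115- CDPs turning to 0.04 under median ratio scaling and quantile normalization. A difference of the KO effect between populations was not detected for Smad7 by the interaction test described below.

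Skil encodes SnoN, a SMAD-bound corepressor that TGF-β signaling first degrades and then induces. Skil varied more than any other of the 10 genes, with a ratio of 23.2 between the highest and lowest of the 18 libraries. In MPPs it was at 10.42, 16.50 and 3.66 FPKM in WT and at 56.35, 68.03 and 3.11 in KO. In KO replicates 1 and 2 it was 5.41 and 4.12 times the WT library of the same number, but in replicate 3 it was 0.850 times. The log2 difference was 1.38 (SE 1.11, 95% interval -1.27 to 4.02, adjusted p = 0.437 in limma), and without MPP KO 3 it was 2.69 and passed (adjusted p = 0.00655).

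In CD115- CDPs Skil followed the replicate number and not the genotype label, at 33.47, 44.12 and 2.93 FPKM in WT and 42.65, 38.59 and 2.99 in KO. The mean of replicates 1 and 2 was 13.2 times replicate 3 in WT and 13.6 times in KO. The log2 difference between genotypes was 0.06 (adjusted p = 0.994 in limma), with a 95% interval of -2.93 to 3.05 that narrowed to -0.26 to 0.37 with the block. In CLPs Skil was low in both genotypes, at 8.79, 4.10 and 4.87 in WT and 5.25, 3.55 and 5.37 in KO (log2 difference -0.23, SE 0.248, adjusted p = 0.582 in limma).

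**Figure D2:**
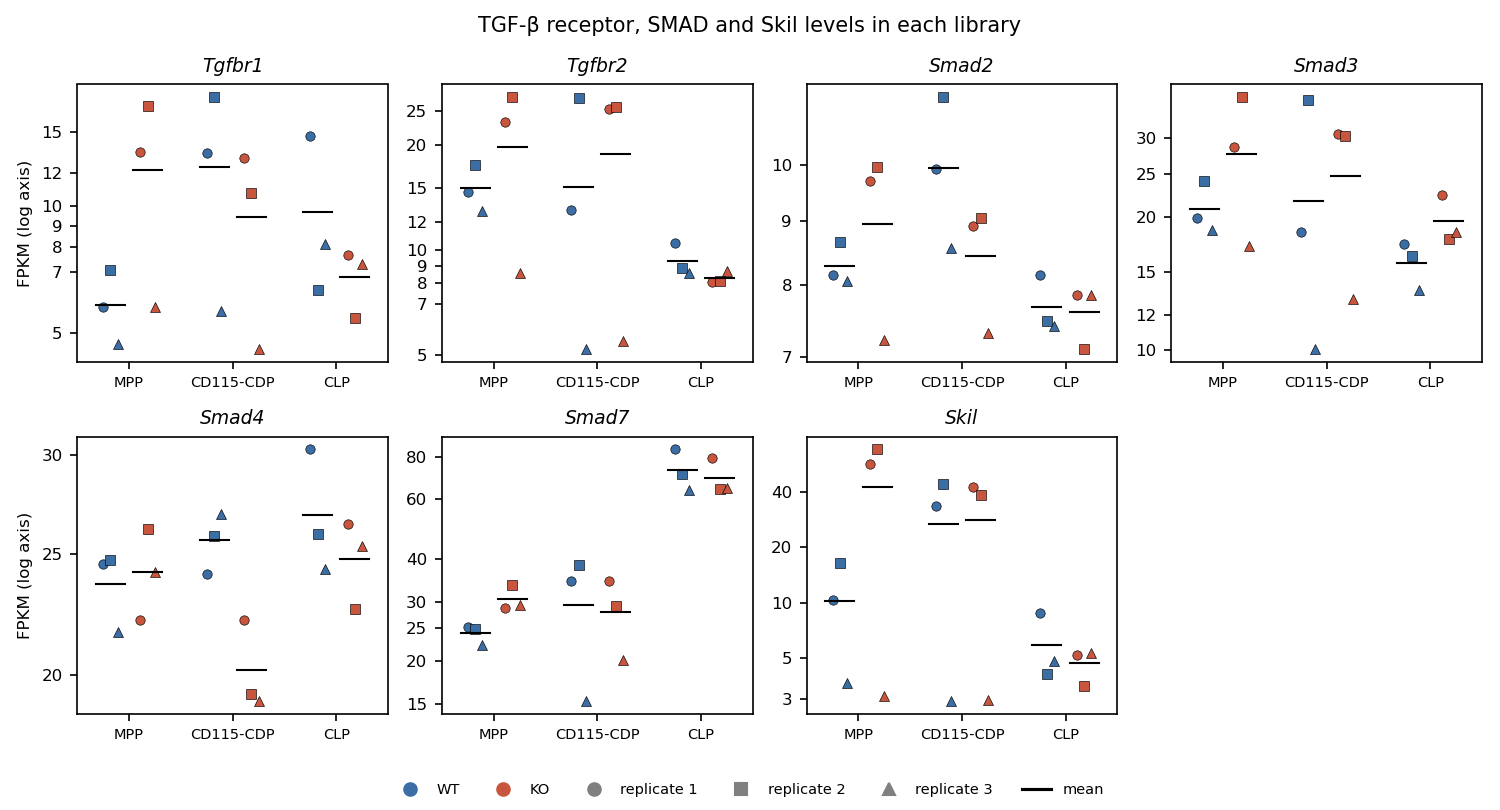
FPKM of Tgfbr1, Tgfbr2, Smad2, Smad3, Smad4, Smad7 and Skil (log vertical axes) in each of the 18 libraries, by population and genotype label. Symbols are single libraries, with the shape giving the replicate number, and horizontal bars are the means of 3 libraries. Replicate 3 of CD115- CDPs is the lowest library of both genotypes for Tgfbr1, Tgfbr2, Smad2, Smad3, Smad7 and Skil, and Smad7 is highest in CLPs at 63.74 to 84.29 FPKM.

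The plot of receptor and SMAD levels places the split beside the genotypes. In CD115- CDPs, Tgfbr1, Tgfbr2 and Skil were lower in replicate 3 than 50% of each of the other replicates in both genotypes, and Smad7 in WT and Trim33 and Smad3 in KO were so too. In KO MPPs this held for Trim33, Tgfbr1, Tgfbr2 and Skil. In WT MPPs it held for Skil, beside 0.776% of all genes tested there. In CLPs it held for none of the 10 genes, and 0.122% of all genes tested there were so placed in both genotypes. Within each genotype of CD115- CDPs, replicate 3 also had the highest MPP, CD115- CDP, neutrophil and monocyte marker sums. Its CLP marker sum was the lowest. The monocyte sum in replicate 3 was 1778.55 FPKM in WT and 270.91 in KO. Some of the marker lists share genes, as given above. In MPPs the 8 neutrophil markers summed to 2471.69, 1489.95 and 1582.82 FPKM in KO 1, 2 and 3. The part of these markers in the replicate split was not tested.

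None of the 10 genes passed in MPPs, CD115- CDPs or CLPs, where 3.84%, 0.106% and 14.3% of all genes tested did in limma. At an unadjusted p under 0.05 there was 1 gene in MPPs (Smad7) and there were 0 in CD115- CDPs and 0 in CLPs, beside 24.2%, 10.5% and 29.6% of all genes. The common test, in which 14.8% of all genes passed, also called 0 of the 10, with 1 (Trim33) at an unadjusted p under 0.05, beside 29.5% of all genes. The test for a KO effect that differs between populations, an F test of the interaction, called 0 of the 10, against 2.45% of all genes, and 0 of them at an unadjusted p under 0.05, against 15.8%. The median log2 difference of the 10 genes was 0.20 in MPPs and -0.09 in both other populations, beside medians over all genes tested of -0.108, -0.0748 and 0.00761. Median ratio scaling moved the median of all genes in MPPs to -0.00524, and scaling to TPM moved that in CD115- CDPs to -0.193.

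**Figure D3:**
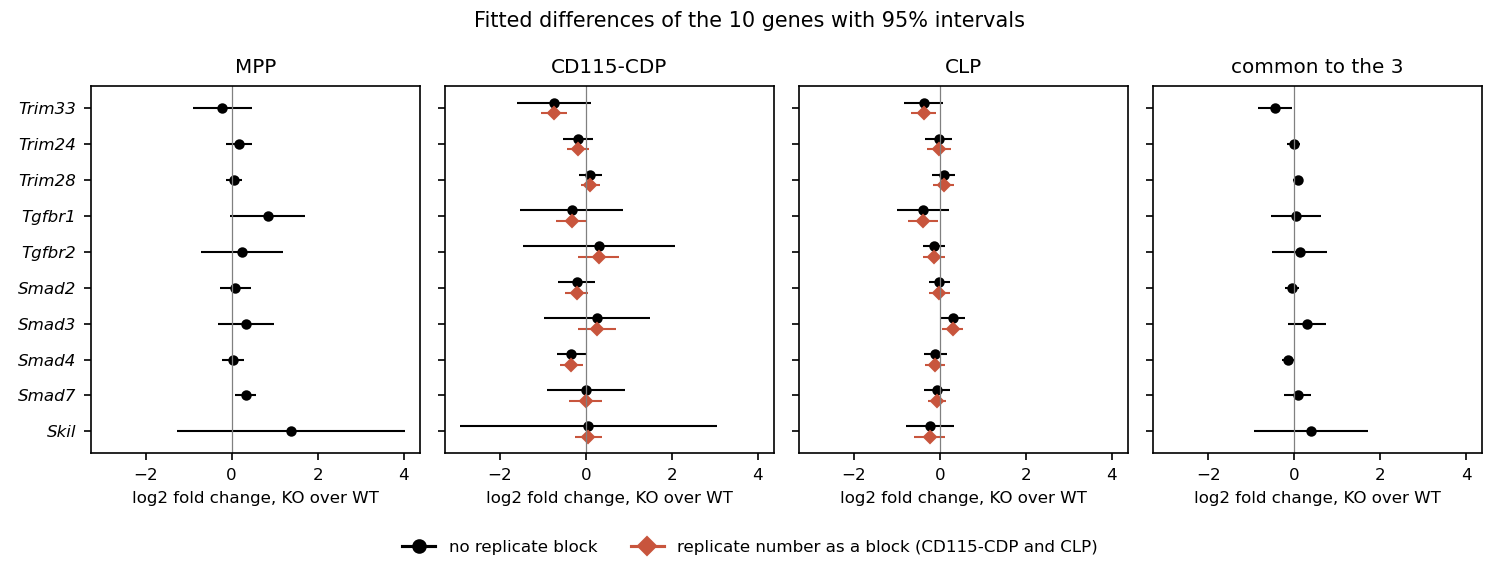
Log2 difference of KO from WT (horizontal axes) of the 10 genes in MPPs, CD115- CDPs, CLPs and over the 3 populations together. Points are limma estimates on log2(FPKM + 1) with 95% intervals, and red diamonds in the CD115- CDP and CLP panels are the values with a block on the replicate number. The interval of Skil in CD115- CDPs runs from -2.93 to 3.05 without the block, and that of Trim33 from -1.04 to -0.44 with it.

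As the plot of log2 differences shows, the widest intervals in MPPs and in the common test belonged to Skil, Tgfbr2 and Tgfbr1. In CD115- CDPs they belonged to Skil, Tgfbr2 and Smad3, and in CLPs to Tgfbr1, Skil and Trim33. The narrowest was that of Trim28, except in CLPs, where it was that of Smad2. A block on the replicate number narrowed the intervals in CD115- CDPs without moving the differences, since each number holds 1 WT and 1 KO library.

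When replicate 3 of both genotypes was left out of MPPs, 5 of the 10 genes passed, all higher in KO: Skil at 2.15 (SE 0.22, adjusted p = 0.00416), Tgfbr1 at 1.14 (adjusted p = 0.00591), Tgfbr2 at 0.62 (adjusted p = 0.0146), Smad3 at 0.56 (adjusted p = 0.0366) and Smad7 at 0.30 (adjusted p = 0.0484) on the log2 scale in limma. In that fit of 2 against 2 libraries 49.6% of all genes passed, so that 5 of 10 is the share found across the transcriptome. In CD115- CDPs none of the 10 passed without replicate 3, where 2.67% of all genes did.

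In WT mice, Smad7 was the 1 gene of the 10 that differed between the populations in limma. It was at 22.36 to 25.26 FPKM in MPPs, 15.25 to 38.48 in CD115- CDPs and 63.74 to 84.29 in CLPs, so that every CLP library was above every library of the other populations. The log2 difference of CLPs from MPPs was 1.55 (SE 0.295, adjusted p = 0.00549 in limma), in a comparison in which 25% of all genes passed. From CD115- CDPs it was 1.38 (SE 0.295, adjusted p = 0.0239), where 10.9% passed, and leaving out any 1 of the CLP WT libraries took the adjusted p above the threshold (0.0723, 0.0836 and 0.0554 for replicates 1, 2 and 3). MPPs and CD115- CDPs did not differ in Smad7 beyond their spread (0.17, SE 0.295, adjusted p = 0.704), and 0 of the 10 genes passed between them, where 21.9% of all genes did and where 0 of the 10 and 37% of all genes had an unadjusted p under 0.05. Each population has its own table, so population and table cannot be told apart in these differences.

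Among the other 9 genes, Trim24 came closest, at 7.17 ± 0.626 FPKM in WT MPPs, 8.72 ± 0.361 in CD115- CDPs and 9.49 ± 1.74 in CLPs (SD, n = 3). Its log2 difference of CLPs from MPPs was 0.35 (adjusted p = 0.102 in limma), and it passed under quantile normalization (0.41, adjusted p = 0.032). The mean of Skil ran from 26.8 ± 21.4 FPKM (SD, n = 3) in CD115- CDPs over 10.2 ± 6.42 in MPPs to 5.92 ± 2.52 in CLPs, and neighbours in that order did not differ beyond their spread. Tgfbr1 was lowest in MPPs (5.85 ± 1.17 FPKM) and at 9.71 ± 4.39 in CLPs and 12.4 ± 6.30 in CD115- CDPs. Without CD115- CDP WT 3, 51.9% of all genes and 5 of the 10 passed between CD115- CDPs and MPPs, all higher in CD115- CDPs: Skil (2.01, adjusted p = 0.0074), Tgfbr1 (1.29, 0.00579), Smad7 (0.57, 0.00539), Trim33 (0.55, 0.0377) and Smad2 (0.32, 0.0355) in limma. Without the same library 41.3% of all genes and 6 of the 10 passed between CLPs and CD115- CDPs, with Smad7 higher in CLPs at 0.98 (adjusted p = 0.000739) and Skil, Tgfbr2, Smad3, Trim33 and Smad2 lower, from -2.57 for Skil (adjusted p = 0.00344) to -0.42 for Smad2 (adjusted p = 0.0155).

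The wider pathway was read from a list of 82 genes of TGF-β, activin and BMP signaling, of which 72 are not among the 10 above. Of these 72, 53, 51 and 51 passed the low-value filter in MPPs, CD115- CDPs and CLPs. In MPPs 0 were higher and 3 lower in KO, where 0.315% and 3.52% of all genes were, and 3 higher and 11 lower of the 53 had an unadjusted p under 0.05, beside 4.45% and 19.8% of all genes. In CD115- CDPs 0 passed in limma, with 3 higher and 4 lower of the 51 at an unadjusted p under 0.05, beside 4.54% and 5.99% of all genes. With the block 3 were higher (Cdkn1c, Myc and Fkbp1a) and 3 lower (Id3, Ncoa3 and Ep300), beside 3.78% and 5.56% of all genes. In CLPs 3 were higher and 3 lower, beside 5.41% and 8.92% of all genes, and with the block 6 were higher and 6 lower, beside 8.44% and 12.5%. In the common test 2 were higher (Fkbp1a and Strap) and 4 lower (Acvrl1, Pmepa1, Acvr2b and Nedd4l), beside 4.44% and 10.4% of all genes. The call of Nedd4l was lost under median ratio and quantile scaling (adjusted p = 0.0601 and 0.387), and that of Acvr2b with the block (0.0657), under quantile normalization (0.155) and without any 1 library (0.0525 to 0.0745) except MPP KO 3, CD115- CDP WT 3, KO 1 or KO 3, and CLP WT 2, WT 3 or KO 3. The median log2 difference of the pathway genes tested was 0.14 in MPPs and -0.19 and 0.00 in the other populations, in the order above. These counts do not set the pathway apart from the rest of the transcriptome, and single genes of it are described next.

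The largest of the called changes in CLPs was in Pmepa1, a SMAD-induced gene whose product sequesters SMAD2 and SMAD3 from the receptor. Pmepa1 fell in CLPs, from 3.45, 3.06 and 2.43 FPKM in WT to 0.60, 0.45 and 0.59 in KO. The groups did not overlap, as for 18.6% of genes tested there with KO wholly below WT. The log2 difference of -1.36 (SE 0.138, adjusted p = 0.000416 in limma) kept its call in every alternative run that tested it. The filter at 5 FPKM left Pmepa1 out. In CD115- CDPs it was at 2.06, 2.15 and 1.19 in WT and 0.98, 1.40 and 0.67 in KO (adjusted p = 0.528), and in MPPs it was under 1 FPKM in both genotypes. The KO effect on Pmepa1 differed between populations (interaction adjusted p = 0.0095 in limma). In the common test it passed as well (-0.58, adjusted p = 0.0298), but not without CD115- CDP WT 1 or without any 1 CLP library except WT 3 (0.0522 to 0.0614), nor after quantile normalization (-0.47, adjusted p = 0.102).

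Of 10 receptors and co-receptors tested in CLPs, 2 passed, both lower in KO, and the median log2 difference of the 10 was -0.0976. Acvrl1 (ALK1), a type I receptor for BMP9 and BMP10, fell from 0.93, 1.85 and 1.0 FPKM in WT to 0.35, 0.27 and 0.49 in KO CLPs (log2 difference -0.70, SE 0.173, adjusted p = 0.0299 in limma). It also passed in the common test (-0.63, SE 0.158, adjusted p = 0.0128). Acvr1 (ALK2), another type I receptor of the family, fell from 3.60, 3.04 and 2.57 to 2.12, 1.81 and 1.72 in CLPs (-0.49, SE 0.138, adjusted p = 0.0479 in limma). In CLPs the call of Acvrl1 was lost without WT 2, KO 1, KO 2 or KO 3 (adjusted p = 0.0621 to 0.0988 in limma), and that of Acvr1 without any 1 library except WT 3 (0.0662 to 0.155), with no filter (0.0933) and with TPM (0.0784).

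Of the genes that rose, Fkbp1a (FKBP12), which binds the unstimulated type I receptor and keeps it inactive, was the most uniform. It was at 91.79, 94.17 and 98.72 FPKM in WT and 122.27, 108.02 and 128.55 in KO MPPs, at 76.15, 72.92 and 97.95 and then 112.01, 106.88 and 138.73 in CD115- CDPs, and at 80.60, 90.38 and 86.41 and then 127.59, 113.51 and 104.96 in CLPs. KO libraries were above WT libraries in all 3 populations without overlap, as were 6.98%, 7.68% and 15.3% of the genes tested in each. The common log2 difference was 0.43 (SE 0.0719, adjusted p = 0.00115 in limma), and it passed in CLPs (0.42, SE 0.106, adjusted p = 0.0326) and, with the block, in CD115- CDPs (adjusted p = 0.0236; 0.405 without it). The call in CLPs was lost without WT 2, WT 3, KO 1 or KO 2 (adjusted p = 0.0743 to 0.101) and with TPM (0.056). Strap, an adaptor that recruits SMAD7 to the receptor, rose in the common test as well (0.36, SE 0.0729, adjusted p = 0.00373).

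Myc, a gene that TGF-β represses in epithelial cells, rose in CLPs from 129.08, 135.77 and 122.10 FPKM to 223.78, 226.27 and 198.71 (log2 difference 0.74, SE 0.0998, adjusted p = 0.00183 in limma). In MPPs it was at 134.58, 123.55 and 133.75 in WT and at 67.00, 75.66 and 129.37 in KO, where KO 3 stood with the WT libraries, and the KO effect differed between populations (interaction adjusted p = 0.0162), which did not pass without MPP WT 1, WT 3, KO 1 or KO 2 (0.0502 to 0.0643). Tgif1, a homeodomain corepressor of SMAD2 and SMAD3, rose in CLPs from 25.90, 29.66 and 31.67 to 37.85, 42.61 and 46.78 FPKM (0.53, SE 0.118, adjusted p = 0.0199), a call lost without WT 2, KO 2 or KO 3 (0.0646 to 0.0797).

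**Figure D4:**
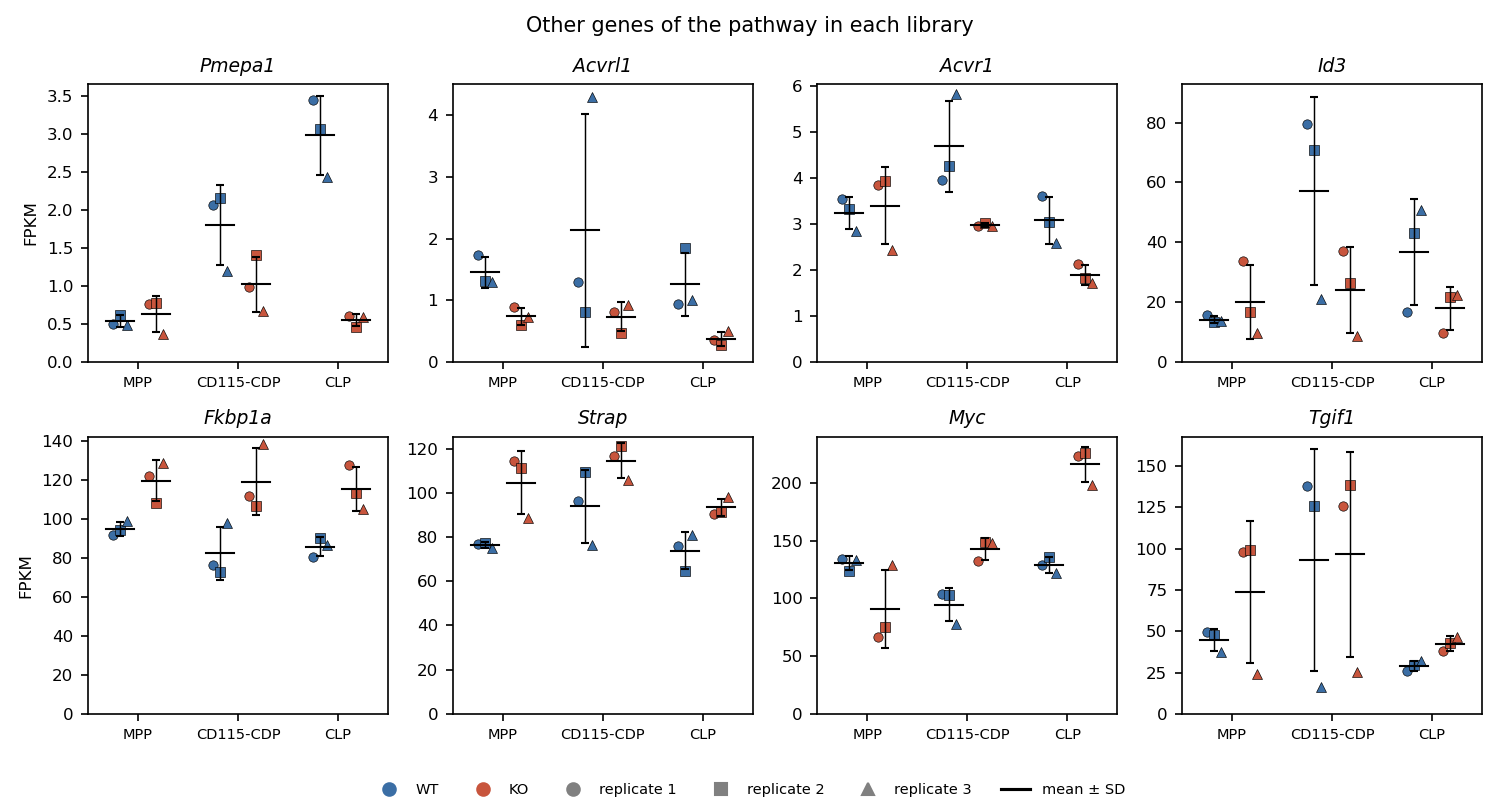
FPKM of Pmepa1, Acvrl1, Acvr1, Id3, Fkbp1a, Strap, Myc and Tgif1 (linear vertical axes starting at 0) in each of the 18 libraries, by population and genotype label. Symbols are single libraries, with the shape giving the replicate number, and bars are means with SD (n = 3). In CLPs Pmepa1 is at 2.43 to 3.45 FPKM in WT and 0.45 to 0.60 in KO, and Fkbp1a is higher in KO than in WT in all 3 populations.

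The plot of pathway genes also holds Id3, a target of BMP and TGF-β signals that inhibits E proteins. It was at 79.72, 70.72 and 21.11 FPKM in WT and 37.06, 26.39 and 8.63 in KO CD115- CDPs, and at 16.55, 42.95 and 50.62 and then 9.64, 21.50 and 22.42 in CLPs. Within each replicate number KO was lower, and Id3 fell with the block in both populations (adjusted p = 0.00473 and 0.000914 in limma) but did not pass without it (0.574 and 0.185).

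In MPPs the 3 genes that fell were Junb, an AP-1 subunit induced by TGF-β and by many other stimuli, Ltbp3, which binds latent TGF-β in the matrix, and Eng (endoglin), a co-receptor. Junb was at 940.38, 868.38 and 850.74 FPKM in WT and 579.58, 489.20 and 371.48 in KO (log2 difference -0.91, SE 0.16, adjusted p = 0.0354 in limma). Ltbp3 was at 25.80 to 28.34 FPKM in WT and 16.82 to 18.60 in KO (-0.59, adjusted p = 0.0275), and Eng at 57.74 to 61.38 and 38.31 to 45.84 (-0.48, adjusted p = 0.0498). WT and KO did not overlap for any of the 3, and KO values wholly below WT values were found for 23.3% of the genes tested in MPPs. All 3 calls were lost under median ratio scaling (adjusted p = 0.0902, 0.057 and 0.0944 in limma) and without any 1 of the WT libraries or KO 2 (0.0682 to 0.253), and those of Ltbp3 and Eng also without KO 1. The call of Eng was also lost with a pseudocount of 0.1, a 5 FPKM filter, TPM, quantile normalization or no trend (0.0503 to 0.0767). That of Junb was also lost with no filter (0.0504) and with the 5 FPKM filter (0.052). In the same libraries 13 immediate early genes, Junb among them, summed to 11763.18 to 12950.13 FPKM in WT and 5050.30 to 5721.06 in KO, and the part of this in the Junb difference was not tested.

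Genes whose level moved with Trim33, Smad7 and Skil were sought by correlating the deviations from the population means over the 18 libraries, across 12421 genes. Those most alike were Foxj2, Gcc1 and St7l for Trim33 (r = 0.927, 0.915 and 0.911), Smg6, Prr3 and Aff3 for Smad7 (r = 0.956, 0.95 and 0.935) and Rabgef1, Fosl2 and Crebrf for Skil (r = 0.989, 0.985 and 0.984). The deviations hold the split of replicate 3 from replicates 1 and 2 in MPPs and CD115- CDPs, which the libraries share.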

How the data were processed

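Messenger RNA of sorted progenitors was sequenced by the authors on the BGISEQ-500 platform as 50-base single-end reads. Per the submitters' processing notes, HISAT2 2.0.4, Bowtie2 2.2.5 and RSEM 1.2.12 were used with build mm10, and the deposited values are FPKM per gene, 1 table for each population. The authors' fold changes and tests were not used. Multi-mapping reads are divided by RSEM, so near-identical genes are uncertain.

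Genes whose mean reached 0.5 FPKM were tested on log2(FPKM + 1) with limma 3.58.1 (R 4.3.3; lmFit, eBayes with trend) and Benjamini-Hochberg adjustment over all genes tested, which numbered 12372, 12229 and 12339 for MPPs, CD115- CDPs and CLPs; a gene passed at an adjusted p of at most 0.05. Fold changes on this scale understate those of low genes. WT and KO were compared within each population, over the 18 libraries with population as a term, and by a population and genotype interaction; WT populations were compared pairwise. The test recovered known changes in simulated data, which held log2 changes of at least 1 and noise drawn separately for each gene. Smaller changes and a split of replicates shared by genes were not simulated. Alternatives were a pseudocount of 0.1, no filter or one at 5 FPKM, TPM, median ratio and quantile scaling, a minimum log2 fold change of 1, the replicate block, and leaving out libraries. FPKM steps gave each library's depth, but whole reads could not be recovered.

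The text names the 10 genes, pathway genes that passed in any population or in the common test, and genes whose interaction passed; Id3 was named after its values were seen. The genes and lists were chosen with earlier results of these data known. Replicate numbers come from the labels, which call the replicates biological repeats but do not say whether populations or genotypes shared mice or days; p-values measure the spread between these samples. Deviations of same-numbered WT and KO libraries from their group means correlated at 0.437, 0.671 and 0.790 in CD115- CDPs and at 0.400, 0.329 and 0.131 in CLPs. The numbers were taken as pairs there, a pairing that comes from this check and not from the study. CLP WT 3 correlated more with KO 2 (0.234) than with KO 3. In MPPs, where the numbers were not taken as pairs, the correlations were 0.0382, 0.482 and 0.472. The check therefore does not set MPPs clearly apart from CLPs. No libraries were duplicates: at least 83.9% of genes differed between any 2. Exon positions are from GENCODE vM21 on GRCm38, and primer letters from the study's primer list.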

Additional observations from a re-analysis of the deposited data

Results flagged for a closer look

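The KO effect differed between the 3 populations for 3 pathway genes, by the interaction test in limma. Cdkn1c, which encodes the cell cycle inhibitor p57, had an adjusted p of 0.00611. It was at 2.39, 2.5 and 2.83 FPKM in WT and 1.68, 1.45 and 1.46 in KO MPPs, but at 1.03, 1.06 and 0.76 in WT and 2.13, 1.98 and 2.17 in KO CD115- CDPs. The genotypes did not overlap in either population, and the directions were opposite. KO values lay wholly below WT for 23.3% of genes in MPPs and wholly above for 7.68% in CD115- CDPs. In CLPs Cdkn1c overlapped, at 0.78 to 1.24 FPKM in WT and 0.76 to 1.33 in KO. Pmepa1 had an adjusted p of 0.0095, with the lower KO level in CLPs given above. Myc had an adjusted p of 0.0162, which rose to between 0.0502 and 0.0643 on leaving out MPP WT 1, WT 3, KO 1 or KO 2.

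Trim24 moved in opposite directions from the WT mean in MPPs and CD115- CDPs. Every KO library was above the WT mean in MPPs, by 0.17 on the log2 scale on average, and every KO library was below it in CD115- CDPs, at -0.18. This difference was not tested by that comparison, and the interaction test did not call it (adjusted p = 0.472 in limma).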

How the results depend on the processing

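Of 1500 values of the 10 genes recomputed under other settings, 1399 kept their direction and side of the threshold, 72 turned direction, 26 came to pass and 3 no longer passed; of 741 values of the other named genes, none turned direction and 87 no longer passed. The cause was not tested. The number of genes past the threshold in MPPs was 134 with a filter at 5 FPKM, 251 after quantile normalization, 183 with a log2 fold change of at least 1 and 6117 without replicate 3 (5 of the 10 genes), against 475. In CD115- CDPs it was 3 with no filter and 323 without replicate 3, against 13. With the minimum fold change it was 434 in CLPs, 186 in the common test, 875 between WT CD115- CDPs and WT MPPs, 1090 between WT CLPs and WT MPPs, and 376 between WT CLPs and WT CD115- CDPs. With a filter at 5 FPKM it was 1206 in the common test, 125 in the interaction test, 1417 between WT CD115- CDPs and WT MPPs and 1811 between WT CLPs and WT MPPs. The interaction test called 189 genes with a pseudocount of 0.1 and 545 with no filter, the common test 2907 without replicate 3 of MPPs and CD115- CDPs, and TPM gave 2124 between WT CLPs and WT CD115- CDPs. After quantile normalization 1 of the 10 genes passed between WT CD115- CDPs and WT MPPs and 2 between WT CLPs and WT MPPs. The share of called genes that were lower in KO moved from 91.8% to 77.7% in MPPs, from 62.3% to 52.6% in CLPs and from 70.1% to 50.8% in the common test after quantile normalization, and to 81.0% in the common test with TPM.

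When the replicate number entered as a block, 297 genes (2.4%) passed in MPPs, 1142 (9.34%) in CD115- CDPs, 2766 (22.3%) in the common test and 1077 (8.67%) in the interaction test. Of the 10 genes, 1 passed in CD115- CDPs (Trim33), 1 in the common test (Trim33, adjusted p = 0.0189 in limma) and 1 in the interaction test (Tgfbr1, adjusted p = 0.0384 in limma). In the common and interaction tests the block also pairs MPP libraries, whose numbers were not otherwise taken as pairs. The block changed no other call of the 10 genes; in MPPs it took Ltbp3 and Eng out of the calls (adjusted p = 0.0576 and 0.0763). In MPPs, where the numbers were not taken as pairs, every WT library correlated best with the KO library of its own number except WT 1. WT comparisons had no block.

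Directions that turned, on the log2 scale, were Trim33 (0.047) and Smad4 (-0.031) in MPPs without replicate 3. In CD115- CDPs they were Trim28 (-0.017) and Skil (-0.059) with TPM, and Smad7 with median ratio (0.041) and quantile (0.040) scaling. In CLPs they were Trim24 (0.0020) and Smad2 (0.0060) after quantile normalization and Trim24 (0.11), Trim28 (-0.0060) and Smad2 (0.0037) without replicate 1. In the common test they were Tgfbr1 with TPM (-0.016), Trim24 with median ratio (0.026) and quantile (0.11) scaling, Smad2 after quantile normalization (0.068), Smad7 without replicate 3 (-0.00034), and Tgfbr1 (-0.29), Tgfbr2 (-0.083) and Skil (-0.32) without MPP KO replicates 1 and 2. Between WT CD115- CDPs and WT MPPs they were Smad3 with median ratio scaling (0.015) and Trim28 after quantile normalization (-0.010), between WT CLPs and WT MPPs Trim33 (0.038) and Smad2 (0.018) with TPM, and between WT CLPs and WT CD115- CDPs Trim28 (-0.070) and Smad4 (-0.038) with median ratio scaling and Trim24 (-0.026) after quantile normalization.

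Leaving out 1 library at a time gave 54 genes (MPP WT 3) to 6717 genes (MPP KO 3) in MPPs, with 0 to 5 of the 10 genes, 0 to 10 genes in CD115- CDPs, 950 to 2521 in CLPs and 154 to 667 in the interaction test. It gave 1368 to 6503 between WT CD115- CDPs and WT MPPs (0 to 5 of the 10), 1810 to 5132 between WT CLPs and WT MPPs, and 419 to 5178 between WT CLPs and WT CD115- CDPs (0 to 6 of the 10), the highest each time without CD115- CDP WT 3. In MPPs Trim33 ranged from -0.45 to 0.12, Trim28 from -0.0067 to 0.084, Smad4 from -0.029 to 0.089 and Tgfbr2 from -0.064 to 0.72. In CD115- CDPs Smad7 ranged from -0.40 to 0.24, Smad3 from -0.17 to 0.72, Tgfbr1 from -0.77 to 0.068, Tgfbr2 from -0.26 to 0.98 and Skil from -1.05 to 1.18. In CLPs Trim24 ranged from -0.11 to 0.10, Smad2 from -0.036 to 0.029, Smad7 from -0.16 to 0.039 and Skil from -0.42 to 0.048. In the common test Tgfbr1 ranged from -0.10 to 0.18, Trim24 from -0.041 to 0.027, Smad7 from -0.024 to 0.16 and Tgfbr2 from -0.041 to 0.31. Between WT CD115- CDPs and WT MPPs Trim28 ranged from -0.029 to 0.076, Smad7 from -0.069 to 0.57, Smad3 from -0.56 to 0.32 and Tgfbr2 from -0.77 to 0.32, and between WT CLPs and WT MPPs Trim33 from -0.27 to 0.095. Between WT CLPs and WT CD115- CDPs Smad3 ranged from -0.70 to 0.18, Tgfbr1 from -0.71 to 0.056, Tgfbr2 from -0.95 to 0.14, Trim28 from -0.016 to 0.088, Trim24 from -0.034 to 0.18 and Smad4 from -0.027 to 0.13.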

Other observations

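The other TRIM genes were read as a background for the TIF1 genes. Of 60 such genes listed, 37, 33 and 35 were tested for MPPs, CD115- CDPs and CLPs. In MPPs 0 were higher and 4 lower in KO, where 0.315% and 3.52% of all genes were. At an unadjusted p under 0.05, 0 were higher and 16 lower of the 37, beside 4.45% and 19.8% of all genes. In CD115- CDPs 0 passed, with 1 higher and 4 lower at an unadjusted p under 0.05 (4.54% and 5.99% of all genes) and 4 lower with the block (5.56%). In CLPs 2 were higher and 4 lower, beside 5.41% and 8.92% of all genes. In the common test 1 was higher and 8 were lower of 36, beside 4.44% and 10.4%. At an unadjusted p under 0.05 in that test, 3 were higher and 15 lower of the 36, beside 9.27% and 20.3% of all genes. Those that fell most belong to the interferon-inducible Trim30 cluster, whose members are similar enough that reads may be divided between them. Trim30a fell from 40.91, 27.76 and 30.81 FPKM in WT to 10.42, 14.58 and 14.91 in KO CLPs (log2 difference -1.25, adjusted p = 0.0024 in limma) and from 19.73, 18.53 and 19.58 to 7.14, 6.00 and 10.46 in MPPs (-1.22, adjusted p = 0.0258). Trim30d fell in the same populations (-1.42, adjusted p = 0.00143 in CLPs and -1.17, adjusted p = 0.0379 in MPPs). The MPP calls of both were lost without any 1 library except KO 3 (adjusted p = 0.0631 to 0.186). That of Trim30d was also lost with no filter (0.0569) and after quantile normalization (0.0621).

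Trim3, a ubiquitin ligase best known from neurons, fell in CLPs from 5.75, 6.49 and 4.74 FPKM to 2.04, 2.23 and 1.88 (-1.12, adjusted p = 0.00107 in limma). Trim13, a ligase of the endoplasmic reticulum membrane, rose in CLPs from 3.87, 5.15 and 4.14 to 7.94, 11.71 and 8.40 (0.93, adjusted p = 0.00739). In MPPs Trim13 was at 11.42 to 11.71 FPKM in WT and 8.58 to 12.63 in KO, so the genotypes overlapped there. Trim58, which is known from late erythroid cells, rose in CLPs from 0.73, 1.0 and 0.76 to 2.13, 2.19 and 1.53 FPKM (0.68, adjusted p = 0.0141; 0.0601 without KO 2), while the 8 erythroid markers summed to less in KO CLPs than in WT CLPs.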
